A study of Mus musculus with 165 samples.

Results

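GCSF-OHT and IL3-OHT cells of the PUER line were compared 12h after the addition of 4-hydroxy-tamoxifen (OHT). The 6 RNA-Seq libraries, 3 in each condition, were chosen by their labels and make up 3.64% of the libraries of the series. PUER cells are a myeloid progenitor line of genotype *Spi1*-/- (label: bone marrow-derived progenitors) that carries PU.1, the product of *Spi1*, as a fusion with the part of the estrogen receptor that binds its ligand, so that OHT switches the factor on. IL3-OHT cells stayed in medium with 5 ng/ml IL3 and received 200 nM OHT. For GCSF-OHT cells the IL3 of the medium was replaced by 10 ng/ml GCSF 48 h before they received 100 nM OHT. The conditions thus differed in cytokine, in the pre-treatment and in the OHT dose, and these cannot be told apart. Both are derivatives of a single line that lacks its own PU.1, and the control condition carries the same fusion and receives OHT too. The libraries are described as biological replicates grown in wells of 48-well plates, with a plate for each time point. The p-values measure the spread between replicate wells. This spread was estimated for each gene over all groups of condition and time that were fitted, not from the 12h wells alone.

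IL3 binds a receptor made of an alpha subunit and the common beta chain and signals mainly through STAT5 and the RAS-ERK pathway. GCSF binds the receptor encoded by *Csf3r*, a homodimer that signals mainly through STAT3, and it drives the growth and maturation of neutrophils. PU.1 is an ETS-family factor required for both macrophages and neutrophils, and the factors C/EBPα and GFI1 on the neutrophil side and EGR1, EGR2 and their corepressor NAB2 on the macrophage side are known to act in the choice between these fates.

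The 12h libraries held 20187224 to 25399356 reads on genes, and the share of mitochondrial reads was 1.58% to 1.70% in GCSF-OHT and 1.36% to 1.46% in IL3-OHT. Values below are normalized counts, that is, read counts divided by the size factor of the library, which compare libraries but not genes of different length. In these bulk libraries fewer cells of a type and less RNA per cell cannot be told apart. Replicate 3 of GCSF-OHT 12h stood apart from the other two. Of 9825 genes with a mean over 100, 2.09% lay more than 0.58 (log2) from the mean of the other libraries, most of them below it (1.92%). The share was 0.295% and 0.458% for replicates 1 and 2, and 0.316% to 0.367% for the IL3-OHT libraries. *Fosl1*, *Slc2a1*, *Hk2* and *Ldha* are among the genes that were lower in it, and named calls that end without this library, and list counts that it moves by more than 1.5 times, are given with and without it.

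The log2 fold change (log2FC) is GCSF-OHT over IL3-OHT on log2(normalized count + 1). A gene was called different where limma's moderated test across 17414 genes gave an adjusted p under 0.05 with a log2FC beyond 0.58 in either direction. By this rule 3011 genes were called, 17.3% of those tested, 1554 of them higher in GCSF-OHT (8.92%) and 1457 lower (8.37%). Without replicate 3 of GCSF-OHT the counts were 1529 and 1412. Differences of more than 4-fold were called for 266 genes, 143 of them lower in GCSF-OHT, and the median log2FC over all genes tested was -0.0041. These shares are the background for the gene lists that follow, which were assembled with results of these data in view and are described by their counts only.

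Among the cytokine receptors the GCSF receptor gene stood out. *Csf3r*, which encodes the GCSF receptor (chr4:126024550-126044440, GRCm38), stood at 6115, 6107 and 6311 in the GCSF-OHT libraries and 509.8, 480.2 and 475 in the IL3-OHT libraries. The libraries of the 2 conditions did not overlap, and the level was 12.6-fold higher in GCSF-OHT, with log2FC = 3.66 (SE 0.064, adjusted p = 2.05e-81). The receptor subunits for IL3 and its relatives differed less. *Il3ra*, the alpha subunit of the IL3 receptor, had log2FC = 0.35 (SE 0.13, adjusted p = 0.0182) and was not called. *Csf2rb*, the common beta chain, stood at 35756, 37375 and 36802 in the GCSF-OHT libraries and 36389, 35186 and 35433 in the IL3-OHT libraries, and the ranges overlapped (log2FC 0.039). Its IL3-specific paralog *Csf2rb2*, which shares much of its sequence so that reads may be split between the pair, had a log2FC of -0.51, short of the threshold. Of 18 myeloid cytokine receptor genes tested, 4 were called higher and 1 lower, with a median log2FC of 0.25. The other higher ones were *Tnfrsf1b* (1.07), a TNF receptor, *Il1r1* (0.99) and *Ifngr1* (0.70). *Il1r1* lost its call without replicate 2 of IL3-OHT (0.85) or of GCSF-OHT (0.71), which left 3 members higher. The lower one, *Il1rl1*, the IL33 receptor, had at most 3 reads in a GCSF-OHT library and 13 in an IL3-OHT library, and its call was lost with DESeq2 and without replicate 2 of either condition.

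Of the STAT feedback and target genes, the inhibitors were mostly lower. *Cish*, a classical STAT5 target that dampens cytokine signaling, stood at 1409, 1585 and 1165 in the GCSF-OHT libraries and 7605, 7169 and 6775 in the IL3-OHT libraries, 5.21-fold lower in GCSF-OHT (log2FC = -2.38, SE 0.08, adjusted p = 9.52e-53). *Socs1*, a JAK inhibitor, was at 33.8, 43.2 and 32.97 in the GCSF-OHT libraries and 490.4, 429 and 472 in the IL3-OHT libraries, a difference of 12.4-fold (log2FC = -3.63, SE 0.18, adjusted p = 6.38e-38). *Socs2* was lower too, with log2FC = -1.66 (SE 0.08, adjusted p = 3.7e-38). Every GCSF-OHT library lay below every IL3-OHT library for these 3 genes. *Ccnd2* and *Bcl2l1*, a D-type cyclin and an anti-apoptotic gene that STAT5 is known to induce, had log2FC of -1.66 and -1.49. *Socs3*, the feedback inhibitor that binds the GCSF receptor, was not called, with 6525, 7302 and 6042 in the GCSF-OHT libraries and 8715, 8049 and 8686 in the IL3-OHT libraries (log2FC -0.36). *Pim1*, a survival kinase induced by both cytokines, did not separate the conditions, with 13311, 14640.4 and 13158 in the GCSF-OHT libraries and 14346, 13194 and 13553 in the IL3-OHT libraries.

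The higher members of this list were others. *Bcl3*, an IκB-family cofactor, stood at 636, 742 and 651 in the GCSF-OHT libraries and 186.99, 158.8 and 169.6 in the IL3-OHT libraries (log2FC = 1.97, SE 0.15, adjusted p = 8.38e-23). *Bcl6*, a repressor known as a STAT target, stood at 987, 999.8 and 865 in the GCSF-OHT libraries and 260.2, 264 and 255 in the IL3-OHT libraries (log2FC = 1.87, SE 0.092, adjusted p = 2.27e-37). *Stat3* itself had a mean of 4024 ± 49.7 (SD, n = 3) in GCSF-OHT and 1975 ± 102.9 in IL3-OHT (log2FC 1.03). *Lrg1*, a STAT3-responsive glycoprotein of neutrophil granules, had a log2FC of 1.81 and *Gadd45g* 1.11. In all, 6 of 22 list members were called higher and 8 lower, and the median was -0.22. *Osm*, *Id1* and *Il4ra* were the remaining lower members.

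STAT dimers bind the palindrome TTCNNNGAA, and the promoters of *Cish* and *Bcl6*, which were called in opposite directions, are shown for the matches they hold. Each is 250 bases before and 20 bases from the annotated gene start (RefSeq, GRCm38.p6), read 5′ to 3′ on the strand of the gene, with matches in capitals. *Cish* lies at chr9:107296409-107296678, plus strand, and *Bcl6* has 2 annotated starts, at chr16:23988833-23989102, minus strand, and at chr16:23981264-23981533, minus strand.
Cish: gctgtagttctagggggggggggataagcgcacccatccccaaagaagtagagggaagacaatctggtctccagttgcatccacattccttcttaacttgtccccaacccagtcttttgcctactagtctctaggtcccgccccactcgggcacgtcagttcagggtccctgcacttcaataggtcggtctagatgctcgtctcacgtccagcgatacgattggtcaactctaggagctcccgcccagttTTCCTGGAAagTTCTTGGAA
Bcl6: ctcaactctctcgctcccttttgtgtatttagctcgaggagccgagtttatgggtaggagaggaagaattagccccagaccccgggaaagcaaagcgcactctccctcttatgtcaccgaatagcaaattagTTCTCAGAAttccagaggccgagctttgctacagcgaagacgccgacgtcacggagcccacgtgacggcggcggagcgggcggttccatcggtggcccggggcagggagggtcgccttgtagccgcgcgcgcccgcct
Bcl6: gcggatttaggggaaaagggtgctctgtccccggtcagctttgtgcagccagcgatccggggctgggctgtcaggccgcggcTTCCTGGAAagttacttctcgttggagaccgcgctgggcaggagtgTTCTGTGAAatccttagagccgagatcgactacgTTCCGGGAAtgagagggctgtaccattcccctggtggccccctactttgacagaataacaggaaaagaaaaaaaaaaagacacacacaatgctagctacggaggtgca
The window of *Cish* held 2 matches, which began at position 0 and position 11 counted from the gene start. The windows of *Bcl6* held 1 and 3. Of all 32851 promoter windows of this length, 7.58% held the palindrome, which reads the same on both strands, and 3 of the 17 list members with a window held it (*Cish*, *Bcl6* and *Socs3*). A match describes the letters and does not show that a factor binds there.

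**Figure D1:**
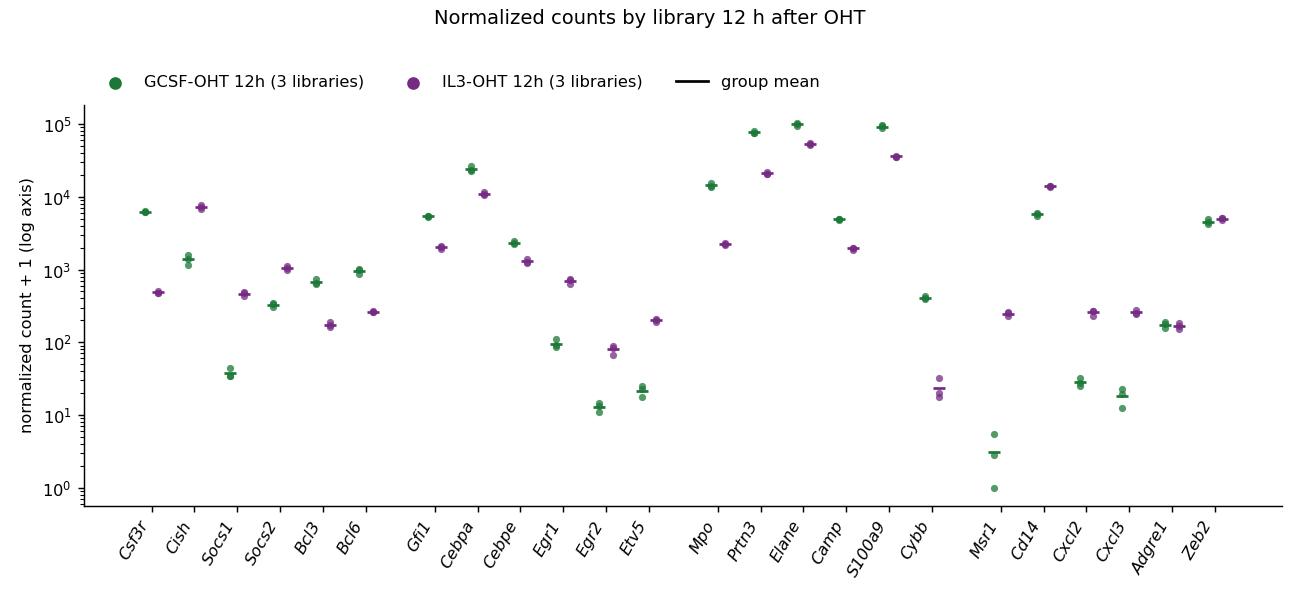
Normalized count + 1 (log axis) in each of the 6 libraries at 12h for 24 genes, grouped as signaling genes, transcription factors, neutrophil genes and macrophage genes; points are libraries and bars are group means. The points of the 2 conditions are apart for all genes shown except *Adgre1* and *Zeb2*.

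Most ERK feedback genes were lower in GCSF-OHT. Of 15 ERK feedback genes tested, 10 were called lower (66.7%, against 8.37% of all genes) and none higher, with a median log2FC of -0.79. *Etv5*, an ETS factor induced by ERK signaling, stood at 23.9, 16.8 and 21.4 in the GCSF-OHT libraries and 186.1, 210.3 and 199.2 in the IL3-OHT libraries (log2FC = -3.22, SE 0.29, adjusted p = 1.62e-18). Its relative *Etv4* had at most 4 reads in any GCSF-OHT library, and the ratio of reads was 11.9 in favor of IL3-OHT (95% exact interval 5.50 to 30.6, counting error only). *Dusp6*, the phosphatase that inactivates ERK, stood at 2041, 2079 and 1779.5 in the GCSF-OHT libraries and 3902, 3903 and 4159 in the IL3-OHT libraries (log2FC = -1.02, SE 0.068, adjusted p = 3.41e-27). *Dusp4* and *Dusp5*, further phosphatases of this family, had log2FC of -1.68 and -1.22, and *Spred1*, an inhibitor of RAS signaling, -1.18. *Spry2*, another feedback inhibitor, did not differ beyond its spread, with 379.5, 411 and 321 in the GCSF-OHT libraries and 329.9, 324 and 324 in the IL3-OHT libraries. *Il3ra*, no feedback gene, is among the 5 members that were not called, and *Spry4* had no read in the 6 libraries.

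Immediate-early genes, which cells induce within minutes of a stimulus and many of which encode transcription factors, were less uniform. Of 20 tested, 7 were called lower and none higher. *Fosb* was at 43.6, 54.7 and 47.2 in the GCSF-OHT libraries and 169.4, 156.1 and 182.3 in the IL3-OHT libraries (log2FC = -1.79, SE 0.18, adjusted p = 1.23e-15), and *Fos* at 355, 342 and 335 in the GCSF-OHT libraries and 548, 612 and 660.3 in the IL3-OHT libraries (log2FC -0.81). *Fosl1* was at 2344, 2415 and 896 in the GCSF-OHT libraries and 4430.5, 3739 and 3797 in the IL3-OHT libraries, so that its mean difference of -1.21 was set in part by replicate 3 of GCSF-OHT, although each GCSF-OHT library lay below those of IL3-OHT. Without that replicate 4 members were called lower. *Jun*, *Atf3* and *Btg1*, an antiproliferative gene, were no longer among them, at -0.52, -0.41 and -0.57 in place of -0.64, -0.61 and -0.74.

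Of 13 macrophage factors tested, 4 were called lower in GCSF-OHT and none higher, with a median log2FC of -0.64, and the differences were largest at 2 EGR genes. *Egr1* stood at 83.97, 91.7 and 108.7 in the GCSF-OHT libraries and 737, 623 and 721 in the IL3-OHT libraries, 7.27-fold lower in GCSF-OHT (log2FC = -2.86, SE 0.18, adjusted p = 2.62e-29). *Egr2* stood at 9.88, 12.3 and 13.4 in the GCSF-OHT libraries and 82.03, 87.2 and 66.8 in the IL3-OHT libraries (log2FC = -2.63, SE 0.22, adjusted p = 2.05e-20). For both genes the conditions were far apart relative to the spread of the wells. Their relative *Egr3*, with at most 20 reads in any of the 6 libraries, was not called (log2FC -1.24). *Nab2*, the corepressor of the EGR factors, was at 1769, 1909.7 and 1269.8 in the GCSF-OHT libraries and 2242, 2079.7 and 2002 in the IL3-OHT libraries, which did not pass the threshold (log2FC -0.37). *Zeb2*, a repressor active in monocytes, stood at 4883, 4564 and 4162 in the GCSF-OHT libraries and 5045, 4797 and 5132 in the IL3-OHT libraries and overlapped. *Irf8*, a factor of the monocyte and dendritic cell lineages, had at most 15 reads in any of the 6 libraries and was not called. *Tfec* and *Mitf*, related bHLH factors, were the other called members, at -0.64 and -0.72. *Tfec* lost its call without replicate 2 of GCSF-OHT, at -0.56. *Mitf* lost its call without replicate 3 of GCSF-OHT, at -0.58, which left 3 members lower. *Klf4* and *Maf* did not pass the filter on low values.

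Of the neutrophil factors, 6 of 10 tested were called higher, 1 lower, and the median log2FC was 0.67. *Gfi1*, a repressor required for neutrophil development, stood at 5232, 5496 and 5503 in the GCSF-OHT libraries and 1933, 2015 and 2086 in the IL3-OHT libraries (log2FC = 1.43, SE 0.06, adjusted p = 1.39e-43). *Cebpa*, which encodes C/EBPα, stood at 22346, 26709.9 and 23629 in the GCSF-OHT libraries and 10964, 10424 and 11538 in the IL3-OHT libraries (log2FC = 1.14, SE 0.13, adjusted p = 6.19e-14). *Cebpe*, which acts later in granulopoiesis, had a mean of 2342 ± 113.6 (SD, n = 3) against 1293 ± 87.6 (log2FC 0.86). The conditions did not overlap for any of the 3. *Per3*, a period gene of the circadian clock that the list counts among these factors, had a log2FC of 1.42, *Cebpd* 0.75 and *Runx1* 0.59. The call of *Runx1* was lost without replicate 2 of either condition (0.56), which left 5 members higher. *Rara*, the retinoic acid receptor alpha, went the other way, at 2329.7, 2511 and 1932 in the GCSF-OHT libraries and 5656, 5049 and 5109 in the IL3-OHT libraries (log2FC = -1.23, SE 0.10, adjusted p = 1.85e-22). Reads assigned to *Spi1*, which in these cells can come from the fusion, were at 9534, 10188 and 10558 in the GCSF-OHT libraries and 7732, 7572 and 7601 in the IL3-OHT libraries, and this difference of 0.40 did not reach the fold-change threshold.

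Of the stem and progenitor genes, *Myb* (1.29), *Hlf* (1.38) and *Lmo2* (0.81) were called higher, and none of 13 tested was called lower. *Kit*, the stem cell factor receptor, had a log2FC of 0.52, just under the threshold. Without replicate 3 of GCSF-OHT it passed, and 5 members were called higher. *Sox4* (-0.18), *Gata2* and *Flt3* were not called, the last 2 at a mean of at most 14.4 in either condition.

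Most granule genes of neutrophils were higher in GCSF-OHT. The proteins of the primary granules are made first in neutrophil maturation, at the promyelocyte stage. *Mpo*, the myeloperoxidase of these granules, stood at 13848, 15268 and 14287 in the GCSF-OHT libraries and 2253, 2165 and 2286 in the IL3-OHT libraries, 6.47-fold higher (log2FC = 2.69, SE 0.10, adjusted p = 6.18e-47). The serine proteases were higher by less. *Prtn3* had log2FC = 1.86 (SE 0.074, adjusted p = 1.49e-45), *Ctsg* a log2FC of 1.23 and *Elane*, the neutrophil elastase, 0.91. *Elane* was already abundant in IL3-OHT, with 54980.4, 51384 and 53344, and reached 100464, 104053 and 94927 in GCSF-OHT. The largest ratio was that of *Prss57*, a further granule serine protease of low level, with 88.9, 95.2 and 81.1 in the GCSF-OHT libraries and 5.29, 0.918 and 3.18 in the IL3-OHT libraries. *Nkg7*, a granule membrane protein also found in lymphocytes, stood at 101.3, 94.3 and 105.2 in the GCSF-OHT libraries and 7.94, 15.6 and 10.6 in the IL3-OHT libraries. In all, 7 of 14 primary granule genes were called higher and 2 lower. The lower ones were *Ctsc*, the protease that activates the others (-0.78), and *Calr*, a chaperone of the endoplasmic reticulum (-0.88).

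PU.1 binds ETS sites of the form GAGGAAGT, and the promoters of *Mpo*, *Elane* and *Prtn3* each held 1 match. They lie at chr11:87793534-87793803, plus strand, at chr10:79886062-79886331, plus strand, and at chr10:79879417-79879686, plus strand, and are printed as above.
Mpo: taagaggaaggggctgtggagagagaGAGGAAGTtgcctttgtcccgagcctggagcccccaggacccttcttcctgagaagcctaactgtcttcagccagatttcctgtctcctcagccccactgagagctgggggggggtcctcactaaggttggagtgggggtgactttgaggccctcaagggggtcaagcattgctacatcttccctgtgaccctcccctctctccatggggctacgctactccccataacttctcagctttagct
Elane: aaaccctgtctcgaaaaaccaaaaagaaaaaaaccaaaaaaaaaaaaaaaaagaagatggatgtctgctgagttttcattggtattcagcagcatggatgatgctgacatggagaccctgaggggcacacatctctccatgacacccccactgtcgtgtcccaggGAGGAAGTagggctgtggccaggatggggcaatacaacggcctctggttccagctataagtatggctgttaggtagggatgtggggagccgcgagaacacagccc
Prtn3: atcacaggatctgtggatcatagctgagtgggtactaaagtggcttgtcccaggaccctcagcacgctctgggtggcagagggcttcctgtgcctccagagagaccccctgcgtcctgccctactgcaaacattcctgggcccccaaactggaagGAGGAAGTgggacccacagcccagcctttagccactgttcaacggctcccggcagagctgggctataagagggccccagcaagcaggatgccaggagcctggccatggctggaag
The matches began at positions -224, -85 and -95 from the gene start. Searched on both strands, these letters were found in 2.72% of all windows and in those of 4 of the 12 primary granule genes with a window, the fourth being *Ctsc*. *Ctsc* was lower in GCSF-OHT, so genes with a match were called in both directions.

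The proteins of the secondary and tertiary granules are made later, from the myelocyte stage onward, and 10 of 15 tested were called higher, 1 lower, with a median log2FC of 1.22. *Hp*, haptoglobin, stood at 47985, 49077 and 48329 in the GCSF-OHT libraries and 11560.1, 11298 and 12124 in the IL3-OHT libraries (log2FC = 2.06, SE 0.042, adjusted p = 4.23e-74). *Chil3*, a chitinase-like protein of maturing granulocytes, was at 12393, 11346 and 12331 in the GCSF-OHT libraries and 4299, 4266 and 3839 in the IL3-OHT libraries (log2FC = 1.54, SE 0.081, adjusted p = 6.78e-35). *Lcn2* and *Camp*, the antimicrobial lipocalin and cathelicidin, had log2FC of 1.26 and 1.32. *Lyz2* was the most abundant gene of the list, with a mean of 352481 ± 8167 (SD, n = 3) against 151082 ± 5066, and reads of its paralog *Lyz1* cannot be separated from it with certainty. *Ltb4r1*, the leukotriene B4 receptor, stood at 171.2, 172.8 and 155.9 in the GCSF-OHT libraries and 22.1, 18.4 and 22.3 in the IL3-OHT libraries (log2FC = 2.94, SE 0.16, adjusted p = 1.49e-33). *Ltf*, lactoferrin, a defining gene of secondary granules, was near the limit of detection in both conditions, at 9.88, 5.29 and 10.7 in the GCSF-OHT libraries and 6.17, 7.35 and 11.7 in the IL3-OHT libraries. *Mmp9*, the gelatinase of tertiary granules, was the lower member, at 60.1, 59.1 and 87.3 in the GCSF-OHT libraries and 162.3, 118.4 and 147.3 in the IL3-OHT libraries (log2FC = -1.05, SE 0.20, adjusted p = 2.09e-06). *Mmp8*, the neutrophil collagenase, was called lower as well without replicate 1 of GCSF-OHT (-0.91) or replicate 3 of IL3-OHT (-0.73).

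Markers of mature neutrophils were mixed, with 8 of 19 called higher and 4 lower. *S100a8* and *S100a9*, the subunits of calprotectin, had log2FC of 0.97 and 1.37. *Cxcr2*, the chemokine receptor of mature neutrophils, stood at 369.6, 401 and 262 in the GCSF-OHT libraries and 114.7, 139.6 and 115.5 in the IL3-OHT libraries (log2FC = 1.46, SE 0.094, adjusted p = 4.51e-28). *Fpr1*, a formyl peptide receptor, was at 7.41, 8.82 and 17.8 in the GCSF-OHT libraries and 0.882, 0.918 and 0 in the IL3-OHT libraries. It rested on 39 and 2 reads, a ratio of 17.8 (95% exact interval 4.61 to 152.1, counting error only). *Stfa2* and *Stfa3*, stefins of a family with near-identical copies, were lower (-1.91 and -0.90) while *Stfa1* was higher (0.99), and the assignment of reads among them is uncertain. *Clec4d*, a lectin receptor of myeloid cells, was lower (log2FC -1.61). *Ly6g* and *Retnlg* were not called.

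Of the 8 subunits of the phagocyte NADPH oxidase, which makes superoxide, 4 were called higher and none lower. *Cybb*, the catalytic subunit, stood at 431, 398 and 403 in the GCSF-OHT libraries and 16.8, 31.2 and 19.1 in the IL3-OHT libraries (log2FC = 4.19, SE 0.21, adjusted p = 8.49e-37). *Ncf4*, the p40phox subunit, stood at 221, 224 and 218 in the GCSF-OHT libraries and 6.17, 12.9 and 15.9 in the IL3-OHT libraries (log2FC = 4.22, SE 0.19, adjusted p = 5.07e-40). At 18.2-fold and 18.7-fold, they were the largest called differences toward GCSF-OHT among genes with a mean of at least 100. *Ncf1* and *Rac2* were higher by 0.69 and 0.69, while *Cyba*, the membrane partner of *Cybb*, was not called, at a log2FC of -0.13.

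Monocyte and macrophage markers split by gene, with 6 of 22 called higher, 8 lower and a median log2FC of -0.27. *Msr1*, the scavenger receptor of macrophages (chr8:39581685-39642673, GRCm38), showed the largest difference of the named genes. It stood at 0, 4.41 and 1.78 in the GCSF-OHT libraries and 228, 259 and 250.1 in the IL3-OHT libraries, from 7 and 776 reads in all, a ratio of 121.5 in favor of IL3-OHT (95% exact interval 58.7 to 303, counting error only), with log2FC = -6.64 (SE 0.36, adjusted p = 1.17e-33). *Spp1*, osteopontin, had a mean of 29528 ± 1131 (SD, n = 3) in GCSF-OHT and 104154 ± 387 in IL3-OHT (log2FC = -1.82, SE 0.089, adjusted p = 7.31e-38). *Cd14*, the lipopolysaccharide coreceptor, was at 5518, 5996 and 5810.0 in the GCSF-OHT libraries and 14181, 13665 and 14049 in the IL3-OHT libraries (log2FC = -1.27, SE 0.057, adjusted p = 2.39e-41). *Cd68* and *Lgals3*, a lysosomal protein and a galectin of macrophages, had log2FC of -0.99 and -1.09. *Mmp12* and *Marco* were also lower, at low levels, *Marco* with 0 reads in GCSF-OHT and 8 in IL3-OHT.

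The higher members of this list included genes of monocytes. *F13a1*, a coagulation factor of monocytes, stood at 2452, 2293 and 1744 in the GCSF-OHT libraries and 615, 576 and 619 in the IL3-OHT libraries (log2FC = 1.83, SE 0.12, adjusted p = 3.86e-27). *Ccr2*, the chemokine receptor by which monocytes leave the marrow, was at 1202, 1099 and 1315 in the GCSF-OHT libraries and 632, 703 and 641 in the IL3-OHT libraries (log2FC 0.87), and *Ly6c2*, their surface marker, at 21228, 20429 and 20194 in the GCSF-OHT libraries and 13728, 13622 and 11795 in the IL3-OHT libraries (log2FC 0.66). *Cd36* (1.24) and *Mpeg1* (0.95) were higher as well. *Csf1r*, the receptor that defines the macrophage lineage, had at most 19 reads in a GCSF-OHT library and 7 in an IL3-OHT library, and was called higher at 1.65. *Adgre1*, which encodes the macrophage marker F4/80, did not separate the conditions, with 175.3, 155.2 and 187.1 in the GCSF-OHT libraries and 150.8, 179.97 and 166.4 in the IL3-OHT libraries.

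Of 16 chemokine and cytokine genes tested, 10 were called lower in GCSF-OHT (62.5%) and none higher, with a median of -1.27. *Cxcl3* and *Cxcl2*, neighboring chemokine genes that attract neutrophils, had the largest differences. *Cxcl3* stood at 11.5, 18.5 and 21.4 in the GCSF-OHT libraries and 250.5, 275 and 246 in the IL3-OHT libraries (log2FC = -3.87, SE 0.25, adjusted p = 5.86e-28). *Cxcl2* stood at 26.3, 30.9 and 24.1 in the GCSF-OHT libraries and 269.9, 225 and 271 in the IL3-OHT libraries (log2FC = -3.19, SE 0.17, adjusted p = 1.23e-33). *Il1rn* (-2.30), the IL1 receptor antagonist, *Ccl9* (-2.06), *Ccl6* (-1.46) and *Tnf* (-1.53) were lower too. *Il1b* was called at -1.88 from at most 4 reads in a GCSF-OHT library and 12 in an IL3-OHT library, and lost its call without replicate 3 of GCSF-OHT. *Ccl3* was just past the threshold (-0.59) and fell short of it when any of 3 libraries was left out, and its neighbor *Ccl4* overlapped, with 204.98, 193.97 and 172.9 in the GCSF-OHT libraries and 213.5, 205.7 and 154.7 in the IL3-OHT libraries. Without replicate 3 of GCSF-OHT 8 members were lower and 1 was higher, *Csf1* (0.75), which also passed without replicate 2 of IL3-OHT (0.59).

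Both *Cxcl2* and *Cxcl3* hold a sequence of the NF-κB form GGGANNTTC near the start, and are printed in the same way from chr5:90903649-90903918, plus strand, and chr5:90785851-90786120, plus strand.
Cxcl2: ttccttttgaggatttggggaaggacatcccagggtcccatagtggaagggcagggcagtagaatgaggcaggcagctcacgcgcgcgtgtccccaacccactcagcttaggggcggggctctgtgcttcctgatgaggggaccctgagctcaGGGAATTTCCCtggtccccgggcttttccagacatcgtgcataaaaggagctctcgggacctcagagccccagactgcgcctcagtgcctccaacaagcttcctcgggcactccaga
Cxcl3: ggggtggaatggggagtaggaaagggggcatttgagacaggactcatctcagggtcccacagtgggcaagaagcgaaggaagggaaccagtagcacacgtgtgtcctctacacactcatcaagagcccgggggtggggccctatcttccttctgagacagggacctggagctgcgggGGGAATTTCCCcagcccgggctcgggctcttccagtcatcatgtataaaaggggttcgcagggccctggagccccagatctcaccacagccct
In each window matches on the 2 strands overlapped in a single stretch of 11 bases, which began at position -97 in *Cxcl2* and -73 in *Cxcl3*. Of all windows 3.52% held the form on either strand, and 5 of the 13 genes of this list with a window did. The others were *Tnf*, which was lower too, and *Cxcl10* and *Csf1*, which were not called.

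Most cell cycle genes were higher in GCSF-OHT. Of 31 mitosis genes, 30 were called higher and none lower (96.8%, against 8.92% of all genes), with a median of 1.06. *Mki67*, the proliferation antigen, stood at 7597, 7579.9 and 8056 in the GCSF-OHT libraries and 2939.8, 3174 and 2896 in the IL3-OHT libraries (log2FC = 1.37, SE 0.086, adjusted p = 8.69e-29). *Ccnb2*, a mitotic cyclin, was at 1021, 1021 and 1074 in the GCSF-OHT libraries and 307, 369 and 379 in the IL3-OHT libraries (log2FC = 1.56, SE 0.072, adjusted p = 4.77e-40), and *Kif11*, the spindle motor, had a log2FC of 1.38. Of 37 DNA replication genes 24 were called higher and none lower, with a median of 0.66, and without replicate 3 of GCSF-OHT 19 were. *Lig1*, the replicative ligase, had the largest difference (log2FC = 1.51, SE 0.067, adjusted p = 1.48e-41). *Rrm2*, a subunit of ribonucleotide reductase, had 1.32, *Mcm5*, of the replicative helicase, 1.13, and *Pcna*, the sliding clamp, 0.51, under the threshold.

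The regulators of entry into the cycle differed in direction. *Ccnd2* stood at 5642, 5659.6 and 5435 in the GCSF-OHT libraries and 17237, 17696 and 18055 in the IL3-OHT libraries (log2FC = -1.66, SE 0.051, adjusted p = 8.69e-57), while *Ccnd3*, the other expressed D-type cyclin, was higher, with a mean of 6182 ± 309.99 (SD, n = 3) against 3055 ± 145.8 (log2FC 1.02). *Cdk6*, the kinase these cyclins activate, stood at 13917, 13334 and 13709.6 in the GCSF-OHT libraries and 5601, 5861 and 5412 in the IL3-OHT libraries (log2FC = 1.28, SE 0.066, adjusted p = 5.5e-36). *Cdkn2c*, an inhibitor of that kinase, was higher as well, at 1227, 1371 and 1269.8 in the GCSF-OHT libraries and 317, 328 and 418 in the IL3-OHT libraries (log2FC = 1.87, SE 0.10, adjusted p = 1.27e-33). *Cdkn1a* (-0.51) and *Cdkn1b* (0.34) were not called. In this list 8 of 18 genes were called higher and 2 lower, the second being *Ccnd1*, whose libraries overlapped at no more than 12 reads and whose call was lost without replicate 1 of GCSF-OHT or replicate 3 of IL3-OHT.

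**Figure D2:**
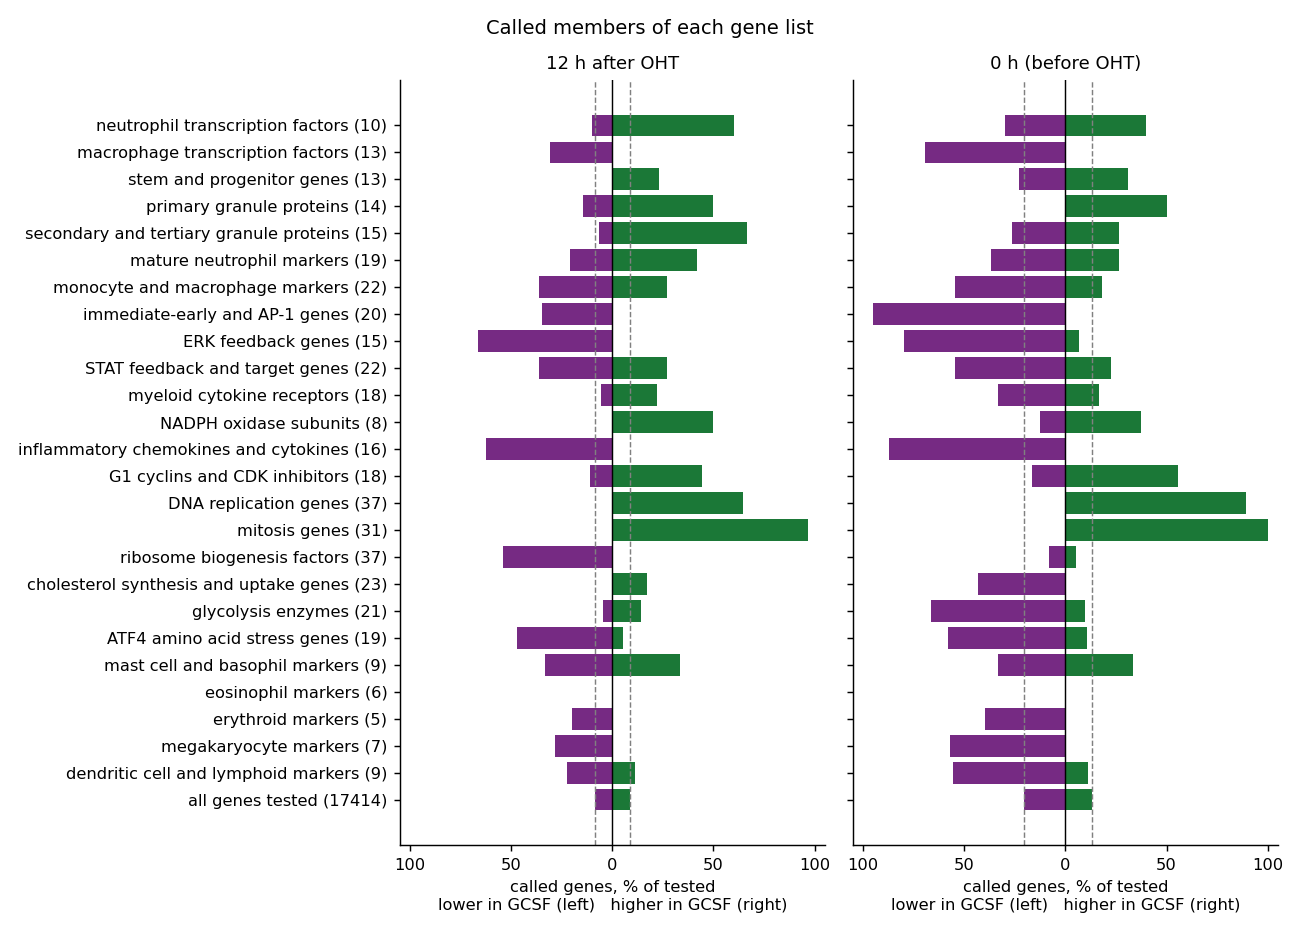
Share of the tested members of each list (number tested in brackets) called higher in GCSF (right) and lower in GCSF (left), at 12h and before OHT; dashed lines mark the shares over all 17414 genes. Mitosis genes reach 96.8% higher at 12h, ribosome biogenesis factors are called lower at 12h and seldom at 0h (3 of 37), and immediate-early genes are called lower in 19 of 20 at 0h and 7 of 20 at 12h.

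The factors that make ribosomes went against the cell cycle genes. Of 37 ribosome biogenesis factors, 20 were called lower in GCSF-OHT (54.1%, against 8.37%), none higher, and every member had a negative log2FC, with a median of -0.62. *Heatr1*, of the complex that processes the small-subunit precursor, stood at 1362, 1494 and 1858 in the GCSF-OHT libraries and 3303, 3657 and 3223 in the IL3-OHT libraries (log2FC = -1.12, SE 0.075, adjusted p = 4.28e-27). *Utp20*, of the same machinery, stood at 823, 831 and 1110.3 in the GCSF-OHT libraries and 1911, 2105 and 1774 in the IL3-OHT libraries (log2FC = -1.08, SE 0.088, adjusted p = 4.95e-21). *Npm1*, the nucleolar chaperone nucleophosmin, was at 7455, 6890.4 and 7249 in the GCSF-OHT libraries and 14866, 15118 and 15362 in the IL3-OHT libraries (log2FC = -1.07, SE 0.075, adjusted p = 1.37e-25), and *Ncl*, nucleolin, had a log2FC of -0.78. In *Heatr1* and *Utp20* the highest GCSF-OHT value was that of replicate 3, and without it 28 members were called lower. *Myc*, which is known to drive these genes, was not called, at a log2FC of -0.35.

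Genes of glucose and cholesterol metabolism were called at 12h about as often as all genes tested (17.3%), with 4 of 21 and 4 of 23 (17.4%). Of the genes of glycolysis and glucose uptake 3 were called higher and 1 lower. *Pfkfb4*, a regulator of glycolytic flux, stood at 555, 588 and 507 in the GCSF-OHT libraries and 191.4, 178.1 and 175.9 in the IL3-OHT libraries (log2FC = 1.59, SE 0.09, adjusted p = 1.99e-32). *Slc2a1*, the glucose transporter, was at 14997, 15323 and 6899 in the GCSF-OHT libraries and 24156, 21098 and 20672 in the IL3-OHT libraries, where replicate 3 of GCSF-OHT lay below the others, and the log2FC of -0.91 became -0.53 without it, under the threshold. *Hk2*, *Ldha* and *Gapdh* had overlapping libraries. All 4 cholesterol genes called were higher (*Insig1* 0.81, *Fdps* 0.78, *Acat2* and *Dhcr7*). *Dhcr7* fell short of the threshold without replicate 2 of GCSF-OHT (0.575). Of 19 ATF4-induced amino acid genes 9 were called lower and 1 higher. *Slc7a11*, the cystine transporter, had -1.43, *Trib3*, a pseudokinase of this response, -1.18, and *Chac1*, which degrades glutathione, was the higher one at 1.00.

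Several defining markers of other lineages were at or near 0. Those of mast cells (*Cpa3*), erythroid cells (*Hbb-bs*), megakaryocytes (*Pf4*) and T cells (*Cd3e*) had at most 1 read in any of the 6 libraries. Of 20 mast cell and basophil genes, 8 had no read in these libraries and 9 were tested, with 3 called higher and 3 lower. Without replicate 3 of GCSF-OHT the counts were 2 and 1, as *Ms4a2* (0.99), a subunit of the IgE receptor, *Fcer1g* (-0.64), the signaling chain it shares with other receptors, and *Gata1* (-1.81) lost their calls. *Hdc*, histidine decarboxylase, stood at 278, 294 and 372 in the GCSF-OHT libraries and 36.2, 42.2 and 26.5 in the IL3-OHT libraries (log2FC = 3.15, SE 0.21, adjusted p = 2.26e-26), and *Mcpt8*, a basophil protease, at 217, 219.5 and 221 in the GCSF-OHT libraries and 67.9, 61.5 and 62.5 in the IL3-OHT libraries (log2FC = 1.76, SE 0.15, adjusted p = 1.29e-20). The summed level of this list was 714 to 787 in GCSF-OHT and 346 to 362 in IL3-OHT. *Gata1* was at most 5 reads in any library. None of 6 eosinophil genes tested was called, with a summed level of 0.88 to 9.18. Of 5 erythroid genes 1 was lower, *Tfrc*, the transferrin receptor that all growing cells use (-0.75). Of 7 megakaryocyte genes *Vwf* (-1.01) and *Itga2b* (-0.60) were lower. *Itga2b* fell short of the threshold with a pseudocount of 5 (-0.57) and without replicate 1 (-0.51) or 3 (-0.56) of GCSF-OHT or replicate 1 of IL3-OHT (-0.57), which left 1 member. Of 9 dendritic cell and lymphoid genes *Itgax* (-2.65) and *Il7r* (-2.87) were lower and *Nkg7* higher. The part of other cells in these results was not tested.

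Apart from the lists, the 10 genes with the largest called differences in each direction at a mean of at least 100 were taken. Besides *Csf3r*, *Cybb* and *Ncf4*, the higher ones included *Lbp*, the lipopolysaccharide-binding protein, with a mean of 1589 ± 90.99 (SD, n = 3) against 177.3 ± 10.3 (log2FC = 3.16, SE 0.083, adjusted p = 6.66e-63). *Mrgpra2a*, a receptor of the Mas-related family, stood at 336, 306 and 327 in the GCSF-OHT libraries and 27.3, 53.3 and 23.3 in the IL3-OHT libraries (log2FC = 3.28, SE 0.23, adjusted p = 9.86e-26). *Apoc2*, an apolipoprotein, had 3.20, *Mcam*, an adhesion molecule, 3.24, and *Baiap3* 3.58, and 2 were gene models without a given name. The lower ones included *Tnfrsf9*, the costimulatory receptor 4-1BB, at 384, 395 and 342 in the GCSF-OHT libraries and 4286, 3986 and 4139 in the IL3-OHT libraries (log2FC = -3.47, SE 0.14, adjusted p = 3.11e-46). *Sema3a*, a secreted semaphorin, stood at 86.4, 81.1 and 98.9 in the GCSF-OHT libraries and 1209, 1349.8 and 1207 in the IL3-OHT libraries (log2FC = -3.81, SE 0.22, adjusted p = 5.39e-31). *Serpinb9e*, *Serpinb9f* and *Serpinb9g*, serpins that neighbor each other on chromosome 13 and may share reads, had -3.78, -4.38 and -4.72. *Fgf23*, a phosphate-regulating hormone, had -4.37, and *F2rl2*, a protease-activated receptor, -3.55. *Msr1*, *Cxcl3* and *Socs1* completed them.

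Whether the difference at 12h was already there before OHT was asked with the cells after 48h of GCSF (GCSF 0h) and the undifferentiated cells in IL3, 3 libraries each and none shared with 12h. The study uses these undifferentiated libraries as the start of both courses, that is, also as the cells before GCSF. They serve here as 0h of the IL3 arm and may not be matched to GCSF 0h for time in culture. The titles of the GCSF 0h libraries name OHT, but their treatment label gives only the replacement of IL3 by GCSF and their time is 0h, so they were taken as cells before OHT. Before OHT 5861 genes were called (33.7%), 2261 higher (13.0%) and 3600 lower (20.7%). Of the 12h calls 58.1% had the same call at 0h (914 higher, 836 lower), which was 29.9% of the 0h calls. Another 1139 genes were called at 12h and not at 0h, while 85 were lower at 0h and higher at 12h and 37 the reverse. The change of the difference itself was tested as an interaction, and 2673 genes had a difference that moved up from 0h to 12h (15.3%) and 1625 one that moved down (9.33%), 24.7% in all.

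*Cish* and *Socs1* differed before OHT much as they did at 12h. At 0h the means of *Cish* were 1858 ± 179.3 in GCSF and 8532 ± 246 in undifferentiated cells (SD, n = 3). The change of the log2 difference was -0.18 (SE 0.11, adjusted p = 0.203) for *Cish* and 0.073 (SE 0.25, adjusted p = 0.853) for *Socs1*, and a p over the threshold does not show that the differences were equal. For *Csf3r* the gap widened, from 5.20-fold to 12.6-fold, with a change of 1.28 (SE 0.09, adjusted p = 4.52e-25). Its level was 5718 ± 403 at GCSF 0h and 6178 ± 115.3 at 12h, and in IL3 it was 1099 ± 75.7 in undifferentiated cells and 488 ± 18.9 at 12h (SD, n = 3), and the larger part of the widening lay in the IL3 arm. The change at *Gfi1* was -1.71 (SE 0.085, adjusted p = 1.3e-36), from 8.79-fold at 0h to 2.69-fold at 12h. *Mpo*, in contrast, went from 2.34-fold to 6.47-fold, and *Bcl6* from a log2FC of 0.39 to 1.87.

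**Figure D3:**
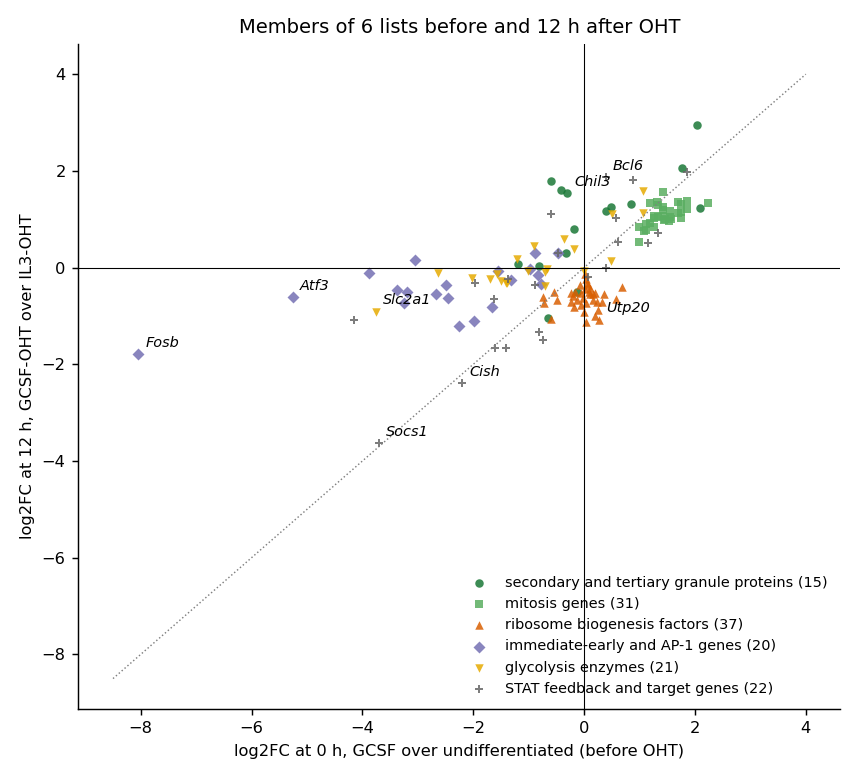
Log2FC before OHT (x axis) and at 12h (y axis) for the members of 6 lists; the dotted diagonal marks equal differences. Immediate-early genes have a median of -2.35 before OHT and -0.41 at 12h, with 7 of 20 called lower at 12h (*Fosb* from -8.05 to -1.79). Ribosome biogenesis factors lie near 0 before OHT and below 0 at 12h (*Utp20* from 0.27 to -1.08), and *Cish* and *Socs1* lie close to the diagonal.

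The secondary granule genes and the ribosome factors differed more at 12h than before OHT. At 0h 4 of 15 secondary and tertiary granule genes were called higher and 4 lower (2 without replicate 3 of GCSF 0h), with a median of -0.19, and 9 had a difference that moved up by 12h. *Chil3* stood at 1389.9, 1328 and 1423 at GCSF 0h and 1626, 1776 and 1711 in undifferentiated cells, and the change was 1.84 (SE 0.11, adjusted p = 1.11e-28). Of the ribosome biogenesis factors 2 were higher (1 without replicate 1 or 3 of GCSF 0h or replicate 1 of the undifferentiated cells) and 3 lower at 0h, with a median of 0.028, and for 19 of 37 the difference moved down. *Utp20* had means of 1454 ± 70.6 and 1205 ± 56.9 (SD, n = 3) at 0h, and its change was -1.35 (SE 0.12, adjusted p = 1.17e-17). *Heatr1* (-1.15) and *Nhp2* (-1.12) changed alike. *Csf3r*, *Gfi1*, *Mpo*, *Chil3*, the ribosome factors and the glycolytic genes were picked for this comparison after their values were seen.

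The immediate-early and glycolytic genes differed less at 12h than before OHT. At 0h 19 of 20 immediate-early genes were called lower, with a median of -2.35, against 20.7% of all genes. For 19 members the difference moved up, *Zfp36* being the exception. *Fosb* stood at 38.1 ± 4.07 at GCSF 0h and 10336 ± 138.5 in undifferentiated cells (SD, n = 3), and the IL3 arm stood at 169.2 ± 13.1 at 12h. Its difference moved by 6.27 (SE 0.26, adjusted p = 1.38e-43). Of 21 glycolysis genes 14 were called lower at 0h and 1 at 12h. *Gapdh* had means of 76669 ± 5827 and 249284 ± 5545 (SD, n = 3) at 0h, and its difference moved by 1.47 (SE 0.13, adjusted p = 1.66e-19). *Slc2a1* stood in the GCSF arm at 1144 ± 77.4 at 0h and 12406 ± 4772 at 12h (SD, n = 3), and its difference moved by 2.84. Of the 31 mitosis genes 31 were called higher at 0h and 30 at 12h. For 4 of the 31 (12.9%, against 9.33% of all genes) the difference moved down, or for 7 without replicate 1 of GCSF 0h. DNA replication genes were called higher in 33 of 37 at 0h (median 1.39) and in 24 at 12h (median 0.66). For 18 of the 37 (48.6%) the difference moved down, or for 22 without replicate 3 of GCSF-OHT 12h.

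The genes with the largest moves up included *Iqcn* (6.87), *Dbn1* (6.33), *Fosb* and *Egr3* (5.57). In each the undifferentiated cells had the highest mean of the 4 groups, *Dbn1* for example standing at 357, 339.6 and 337 there and at 3.53, 8.26 and 2.12 in IL3-OHT at 12h. The largest moves down among named genes were those of *Msr1* (-4.16), *Insl3* (-2.87), *Sema3a* (-2.38) and *Tln2* (-2.19). *Msr1* had at 0h no read in GCSF and 9.16, 4.09 and 2.36 in undifferentiated cells, and its change was not called with edgeR (adjusted p = 0.722) or DESeq2 (adjusted p = 0.234). The change of *Insl3* was not called with DESeq2 (adjusted p = 0.136) or with limma on only the groups compared (adjusted p = 0.104).

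The number of calls declined around 12h. It was 4453 at 8h (25.6%, with 12.0% higher and 13.5% lower), 3011 at 12h and 2345 at 16h (13.5%, with 6.35% higher and 7.12% lower). The fewest over the 26 times were called at 20h, 1963 (11.3%). Later the number was higher again, with 4322 at 80h (24.8%) and 5939 at 136h (34.1%). Between 8h and 12h 509 genes had a difference that moved up and 319 one that moved down (1.83%), 4.75% in all. The ribosome biogenesis factors were prominent among the first, with 25 of 37 (67.6%, against 2.92% of all genes). Of these factors 36 were lower in GCSF-OHT at 8h, 20 at 12h and 2 at 16h, and the median log2FC was -1.40, -0.62 and -0.23. *Utp20* stood in the IL3 arm at 3402 ± 137.8 at 8h, 1929.7 ± 166.03 at 12h and 1489 ± 72.7 at 16h (SD, n = 3), while in the GCSF arm it was 1013 ± 65.1, 922 ± 163.4 and 1029.9 ± 62.1. *Egr1*, too, had a lower mean at 12h in the IL3 arm, 694 ± 61.2 against 1471 ± 19.96 at 8h (SD, n = 3), and changes within an arm were not tested. Mitosis genes called higher went from 31 at 8h to 30 and then 19 at 16h, and *Mki67* stood in the IL3 arm at 2529.7 ± 186.4, 3004 ± 149.4 and 4435 ± 231 (SD, n = 3). Of 15 secondary and tertiary granule genes 10, 10 and 11 were called higher at these times. From 12h to 16h, 41 genes had a difference that moved up (0.235%) and 109 one that moved down (0.626%), 0.861% in all. Without replicate 3 of GCSF-OHT 12h the share that moved up was 0.396%, and without replicate 3 of IL3-OHT 12h the share that moved down was 0.368%. Each time point was harvested from its own plate, and a plate cannot be told apart from its time.

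**Figure D4:**
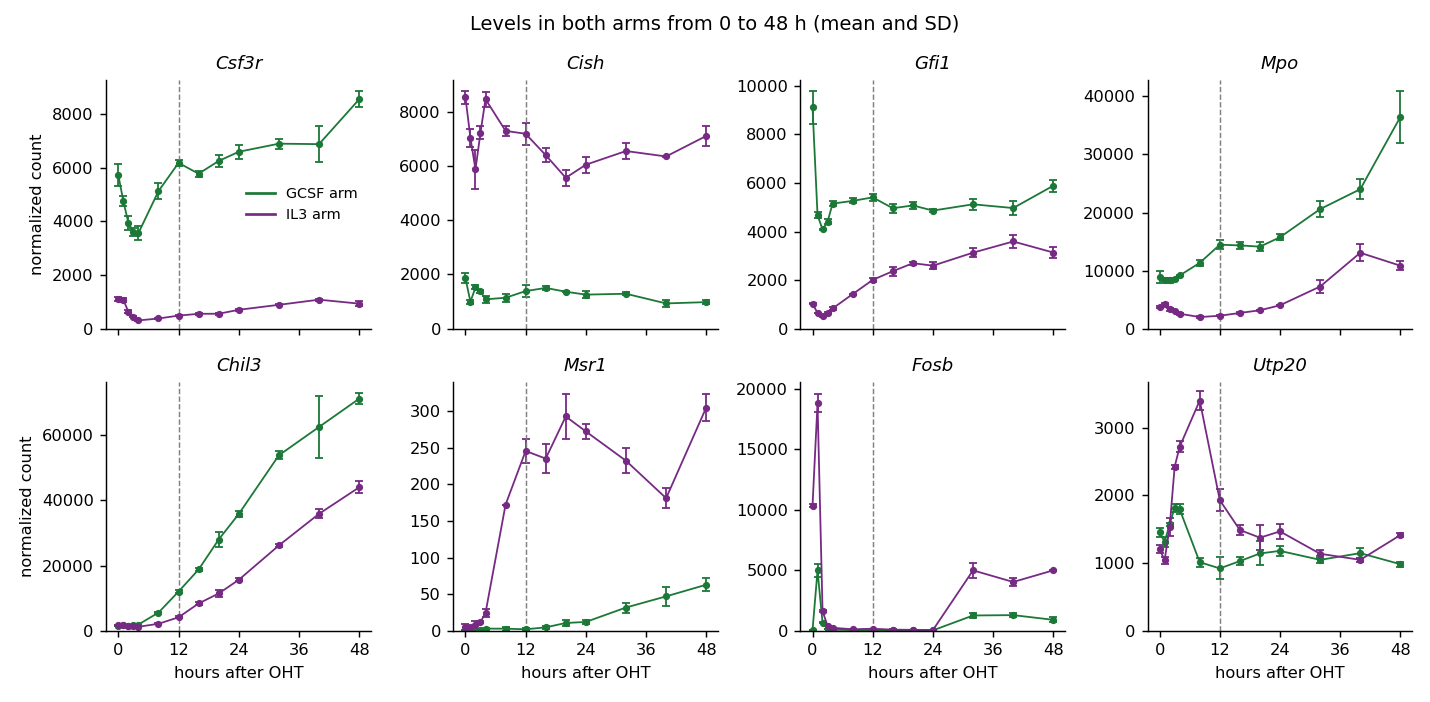
Normalized count (mean, error bars SD) in the GCSF arm and the IL3 arm from 0 to 48 hours after OHT for 8 genes, with 3 libraries at each point and the dashed line at 12h. The undifferentiated cells are 0h of the IL3 arm. *Cish* and *Csf3r* are apart from 0h on, and *Chil3* parts after OHT. *Msr1* is near 0 in both arms at 0h, with reads in undifferentiated cells only, and is higher in the IL3 arm at 12h. *Fosb* in the IL3 arm goes from a mean of 10336 at 0h to 169.2 at 12h, and *Utp20* is highest in the IL3 arm at 8h.

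**Figure D5:**
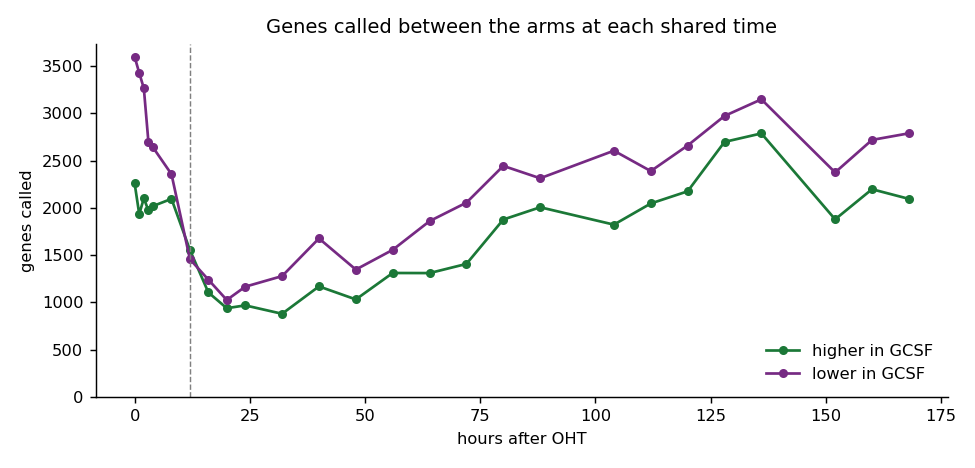
Number of genes called higher or lower in the GCSF arm at each of 26 shared times, 0h being GCSF 0h against undifferentiated cells; the dashed line marks 12h. At 12h 1554 genes are higher and 1457 lower, between the 5861 calls in all at 0h and the 1963 at 20h. Later the calls in all are more again, with 4322 at 80h and 5939 at 136h.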

How the data were processed

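RNA-Seq reads had been quantified by the authors with Salmon against GRCm38, summed to genes and scaled with the median-of-ratios size factors of DESeq2 (versions not given in the sources used here). The deposited signal values are these normalized counts for 36255 genes in 165 libraries, 6 of which form the comparison at 12h. All values were whole multiples of a smallest step in each library (tolerance 1e-06), so the read counts were recovered. A floor of 3 reads corresponded to 2.47 to 3.18 normalized counts at 12h, and intervals cover counting error only. No 2 replicate libraries at 12h agreed within sampling noise (chi-square per gene 3.74 to 17.1).

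The study used the Wald test of DESeq2, and its thresholds and its omission of IL3-OHT 96h and 144h were kept. Here limma 3.58.1 (R 4.3.3) was fitted instead to log2(normalized count + 1), with 1 mean for each of 54 groups of condition and time. The fit held 159 libraries and 17414 genes with at least 5 in at least 1 library. The groups shared 1 estimate of the spread of each gene. p-values were adjusted by the Benjamini-Hochberg method over all genes tested, and the script was tested on simulated data. edgeR 4.0.16 (quasi-likelihood test) and DESeq2 1.42.0 (Wald test) were run on the recovered reads. Other alternatives changed the pseudocount (0.5, 5), the filter (none, mean of at least 10), the scaling (upper quartile, TMM) or the samples (each library left out, only the groups compared), or added the replicate number.

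Gene lists and members were chosen with earlier results of these data known. Named were a few anchor genes of each list, up to 2 called members per direction with the largest fold change, the 10 largest calls per direction at a mean of at least 100, and the 5 largest changes since 0h. Some of these genes are not reported here. Further genes in the text were chosen after their values were seen. Promoters came from RefSeq and gene positions from GENCODE M21, where 34715 symbols matched.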

Additional observations from a re-analysis of the deposited data

Results flagged for a closer look

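The difference between the GCSF and IL3 arms changed with time for many genes, by the interaction test in limma at an adjusted p under 0.05 and a change over 0.58 (log2). From 0h to 12h it moved up for 2673 genes and down for 1625, from 8h to 12h up for 509 and down for 319, and from 12h to 16h up for 41 (0.235% of the genes tested) and down for 109 (0.626%). Single libraries moved these last shares by more than 1.5 times: 0.396% moved up without replicate 3 of GCSF-OHT 12h and 0.368% moved down without replicate 3 of IL3-OHT 12h. The largest moves up from 0h to 12h included those of *Iqcn* (6.87), *Dbn1* (6.33), *Fosb* (6.27) and *Egr3* (5.57).

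The largest moves down were those of the gene model *Gm45140* (-4.33), *Msr1* (-4.16), the hormone gene *Insl3* (-2.87), *Sema3a* (-2.38) and *Tln2* (-2.19), which encodes a talin. *Gm45140* rested on 1 undifferentiated library, with 0, 290.4 and 2.36 in the 3. The change of *Msr1* was not called with edgeR (adjusted p = 0.722) or DESeq2 (adjusted p = 0.234). That of *Insl3* was not called with DESeq2 (-1.84, adjusted p = 0.136) or with limma on only the groups compared (adjusted p = 0.104).

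The following genes were picked after their values were seen. The ribosome factors *Utp20* (-1.35), *Heatr1* (-1.15) and *Nhp2* (-1.12) moved down, as did *Gfi1* (-1.71). *Slc2a1* (2.84), *Gapdh* (1.47), *Jun* (1.81), the ERK pathway phosphatase *Dusp5* (2.76) and *Cd14* (2.08) moved up. So did *Csf3r* (1.28) and the neutrophil genes *Mpo* (1.47), *Prtn3* (0.78), *Chil3* (1.84) and *Cebpa* (0.63), the last of which fell to 0.56, under the threshold, without GCSF-OHT 12h replicate 2.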

How the results depend on the processing

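The counts at 12h ranged over all alternatives from 1407 to 1578 higher and 1193 to 1493 lower, the lowest with DESeq2 (1407 and 1193), with edgeR giving 1467 and 1281. Leaving out each library gave 1473 to 1535 higher and 1362 to 1414 lower. For the change from 12h to 16h leaving out each library gave 0.178% to 0.396% of the genes tested as moved up (0.396% without GCSF-OHT 12h replicate 3) and 0.368% to 0.655% as moved down (0.368% without IL3-OHT 12h replicate 3). Libraries of the same replicate number did not deviate together (r of -0.005, -0.036 and -0.027), and with a replicate block the counts were 1556 higher and 1455 lower. Of 340 alternative counts over all genes, 338 were within 1.5 times the value reported.

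Genes near 0 changed sign. The log2FC of *Pim1* was 0.0097 with upper-quartile scaling, 0.0051 with TMM, 0.00036 with edgeR and 0.0077 with DESeq2, and that of *Ccl4* was -0.0096 with edgeR and -0.0011 with DESeq2. With each library left out the ranges were -0.15 to 0.31 for *Ltf*, -0.0084 to 0.13 for *Adgre1*, -0.049 to 0.034 for *Pim1*, -0.14 to 0.091 for *Ccl4*, -0.13 to 0.13 for *Klf1*, -0.25 to 0.37 for *Gm45140* and -0.048 to 0.14 for the change of *Socs1* since 0h. None of these genes was called at 12h except *Socs1*. Calls at 12h were lost under some alternative for *Fpr2*, *Jun*, *Atf3*, *Fosl1*, *Il1rl1*, *Ccl3*, *Il1b*, *Ccnd1*, *Slc2a1*, *Gata1* and *Itga2b*. When limma was fitted to the 12h libraries alone, those of *Fpr2*, *Atf3*, *Fosl1*, *Ccnd1* and *Slc2a1* were lost. Of further genes in the text, *Runx1*, *Il1r1*, *Tfec*, *Mitf*, *Btg1*, *Dhcr7*, *Ms4a2* and *Fcer1g* lost their calls when a library was left out. *Irf8*, *Kit*, *Cdkn1a*, *Nop56*, *Egr3*, *Insl3*, *Mmp8* and *Csf1* passed under some alternative. Low read counts limit *Etv4*, *Fpr1*, *Marco*, *Csf1r* and *Il1b*.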
